A study of Mus musculus with 10 samples.

Results

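The 35 genes described here carry out DNA replication and cell division: 16 act mainly in the synthesis of DNA (S phase) and 19 in mitosis. They were taken by symbol from a fixed list of names, and each symbol matched 1 of the 35275 Ensembl gene IDs in the count files. All 35 passed the filter on low counts, with between 73 and 3111 reads per gene and library. RNA-seq was carried out on proximal intestine of 5 WT mice and 5 mice without the zinc transporter *Zip14* (*Slc39a14*), labelled KO, with 1 library per mouse, and the comparison asks how loss of *Zip14* alters intestinal gene expression. The sample labels give an age of 8 to 10 weeks for both groups, while the methods of the study name a wider range. The methods of the study describe a whole body deletion with WT controls of the same strain, bred from heterozygous parents, whereas the series is titled as an enterocyte-specific one, a conflict that the counts cannot settle. Male and female mice were used, but neither sex nor age is given per mouse, and the labels name no batch. The labels say that tissue was treated with RNAlater, whereas the methods have it flash-frozen, and both name TRI Reagent for the extraction, and libraries were made with a SMARTer mRNA kit.

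In the epithelium of the small intestine, cells divide almost only in the crypts, where stem cells and their early progeny cycle rapidly before they leave for the villus and stop dividing. Genes of S phase are switched on late in G1, when cyclin D and cyclin E kinases release E2F transcription factors from the pocket proteins of the Rb family. Genes of mitosis follow later, through the MuvB complex with B-Myb and FoxM1, which acts at a promoter element called the cell cycle homology region, often beside CCAAT boxes bound by NF-Y. The level of these mRNAs in a piece of tissue is therefore commonly read as a mark of cycling cells. In bulk tissue, fewer cells of a type and less RNA per cell cannot be told apart.

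The promoters of S-phase and mitotic members held the known motifs in different shares. RefSeq windows running from 250 bases before to 50 bases after the start of transcription (GRCm38.p6) matched 29 of the 35 members in 31 windows, and *Tpx2*, *Ccne2*, *Mcm4*, *Gins2*, *Ccna2* and *Aurkb* had none. Both strands were searched for CCAAT, which NF-Y binds, and for TTTGAA, the core of the cell cycle homology region. Sites of E2F factors were searched by 4 cores, of which TTCCCGC is the first listed for this search. The second one searched was TTCGCGC on either strand of the window. The next core searched in the same way was TTGGCGC, whose letters can overlap those of a reversed CCAAT box, as they did in 1 window of each group. The last core searched in each of the windows was TTGCCGC in the same manner. Of the 16 mitotic windows, 15 (93.8%) held CCAAT, 12 (75%) TTTGAA and 3 (18.8%) an E2F core. Of the 15 S-phase windows of 13 genes, 12 (80.0%) held CCAAT, 2 (13.3%) TTTGAA and 10 (66.7%) an E2F core. Among all 32851 windows of the same length, 37.4% held CCAAT, 17.9% TTTGAA and 9.57% an E2F core, and a match is a description and not a bound site. The 5 windows printed here, chosen after their matches were seen, show both layouts: *Mcm6* (chr1:128359656-128359955, minus strand) and *Mcm5* (chr8:75109259-75109558, plus strand) for S phase, with CCAAT and E2F cores in capitals, and *Cdc20* (chr4:118437294-118437593, minus strand), *Ccnb2* (chr9:70421505-70421804, minus strand) and *Top2a* (chr11:99024140-99024439, minus strand) for mitosis, with CCAAT and TTTGAA in capitals, all on either strand.
Mcm6: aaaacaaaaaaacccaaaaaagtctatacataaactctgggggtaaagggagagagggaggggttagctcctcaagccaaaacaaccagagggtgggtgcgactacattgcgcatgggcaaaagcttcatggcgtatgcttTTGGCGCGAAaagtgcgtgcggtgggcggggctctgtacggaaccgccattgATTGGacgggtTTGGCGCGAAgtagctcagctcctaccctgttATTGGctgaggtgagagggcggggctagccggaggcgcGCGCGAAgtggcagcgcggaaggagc
Mcm5: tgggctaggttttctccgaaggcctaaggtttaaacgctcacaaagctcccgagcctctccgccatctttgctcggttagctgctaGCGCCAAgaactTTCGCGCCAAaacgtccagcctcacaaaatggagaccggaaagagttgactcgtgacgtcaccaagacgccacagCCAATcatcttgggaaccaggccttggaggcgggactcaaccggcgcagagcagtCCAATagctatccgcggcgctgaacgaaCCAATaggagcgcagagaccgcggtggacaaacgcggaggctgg
Cdc20: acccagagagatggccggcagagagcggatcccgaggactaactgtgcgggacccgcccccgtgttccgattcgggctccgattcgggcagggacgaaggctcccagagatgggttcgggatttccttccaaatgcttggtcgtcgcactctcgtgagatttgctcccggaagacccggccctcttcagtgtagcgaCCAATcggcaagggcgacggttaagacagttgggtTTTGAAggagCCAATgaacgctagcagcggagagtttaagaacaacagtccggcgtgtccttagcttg
Ccnb2: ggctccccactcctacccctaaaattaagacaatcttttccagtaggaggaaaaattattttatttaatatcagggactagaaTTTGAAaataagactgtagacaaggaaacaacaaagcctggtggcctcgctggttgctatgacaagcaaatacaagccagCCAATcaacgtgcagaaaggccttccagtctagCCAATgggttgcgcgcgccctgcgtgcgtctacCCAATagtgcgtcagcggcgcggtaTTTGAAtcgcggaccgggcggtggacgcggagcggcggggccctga
Top2a: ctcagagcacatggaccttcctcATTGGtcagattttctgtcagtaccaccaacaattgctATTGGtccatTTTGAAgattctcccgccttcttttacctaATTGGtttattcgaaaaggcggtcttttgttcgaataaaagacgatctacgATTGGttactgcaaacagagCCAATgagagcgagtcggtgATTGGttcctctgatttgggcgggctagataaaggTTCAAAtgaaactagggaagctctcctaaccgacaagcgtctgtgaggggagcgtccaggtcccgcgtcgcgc

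The libraries held between 16729787 and 20819678 counts in WT and between 17118742 and 19414828 in KO, of which the 35 members took 0.115% to 0.128% in WT and 0.0927% to 0.162% in KO. Levels are given as counts scaled to library size after TMM scaling (CPM). *Slc39a14* had 190.8 to 356.8 CPM in WT and 78.5 to 160.1 CPM in KO (log2 fold change -1.35, adjusted p = 0.00184, edgeR's quasi-likelihood test with Benjamini-Hochberg adjustment), without overlap between the groups, although reads were still counted on the gene in KO. Several marker lists moved with the genotype, where 16.0% of all genes were called higher in KO and 13.9% lower. Called higher in KO were 9 of 10 smooth muscle, 8 of 10 epithelial and 5 of 7 tested ileum markers. Enterocyte markers were called lower for 6 of 10, while 0 of 8 Paneth cell and 0 of 8 T cell markers were called. The mean log2 CPM of the ileum markers was 1.72 to 2.42 in WT and 5.92 to 7.12 in KO, and that of the enterocyte markers 11.53 to 12.1 in WT and 7.93 to 10.52 in KO, so that all libraries labelled proximal intestine in KO carried more RNA of ileum markers than any in WT. B cell markers stood apart in single libraries of both groups, with a mean log2 CPM of 3.71 in WT replicate 5 and 4.40 to 4.92 in KO replicates 2, 3 and 4, against -0.27 to 0.54 in the other 6 libraries. edgeR called 0 of the 7 B cell markers it tested, 4 of which had an unadjusted p under 0.05, but 6 of 7 higher in KO without WT replicate 5. Germinal centre B cells also divide, and 2 of 8 tested markers of theirs were called higher, beside 16.0% of all genes. The mean log2 CPM of that list was 2.59 to 2.82 in KO replicates 2, 3 and 4. It was 0.69 to 0.96 in KO replicates 1 and 5 and 0.81 to 1.71 in WT. All of these lists had counts on every gene in both groups. Their part in the levels of the members was not tested, apart from fits with some scores as a covariate. These were the smooth muscle, B cell and epithelial scores, given in the closing section, and no fit used the other lists.

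No member passed the test for a difference between KO and WT. edgeR's quasi-likelihood test called 0 of 16 S-phase members and 0 of 19 mitotic members at an adjusted p under 0.05, and no member had an unadjusted p under 0.05. Over all 15610 genes tested, 29.9% were called, 16.0% higher and 13.9% lower in KO, and 43.3% had an unadjusted p under 0.05. DESeq2 likewise called 0 of the 35 members, against 28.2% of the genes it gave an adjusted p. No member had KO values that lay wholly above or below those of WT, which 21.1% of all genes did. The smallest adjusted p was 0.12 among S-phase members (*Ccne1*) and 0.175 among mitotic members (*Kif11*). With libraries scaled to their size only, the median of all genes moved from 0.03 to 0.15 on the log2 scale and the share of calls that were higher in KO from 53.5% to 69.4%, and still no member was called.

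The log2 fold changes of the members lay on both sides of 0, and the mouse-to-mouse spread left their direction unsettled. The median was -0.06 for S-phase members (range -0.28 to 0.44, 6 above and 10 below 0) and -0.04 for mitotic members (range -0.36 to 0.41, 8 above and 11 below 0), beside 0.03 for all genes. Both medians turned positive when libraries were scaled to their size only, to 0.06 and 0.08, below the median of all genes in that scaling. The mitotic median was 0.10 without KO replicate 4, -0.24 without KO replicate 5, 0.32 with the smooth muscle score as a covariate and -0.84 with the epithelial score, and over all alternatives single members ran from -1.14 (*Top2a*) to 0.89 (*Ccne1*). The 95% intervals of all 35 members lay within 1 log2 unit of 0, their outermost bounds being -0.79 and 0.93. They lay within 0.5 log2 units of 0 for 11 of 16 S-phase members but for 3 of 19 mitotic members. The standard error of the log2 fold change had a median of 0.15 in the S-phase members and 0.21 in the mitotic members, against 0.17 for all genes.

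**Figure D1:**
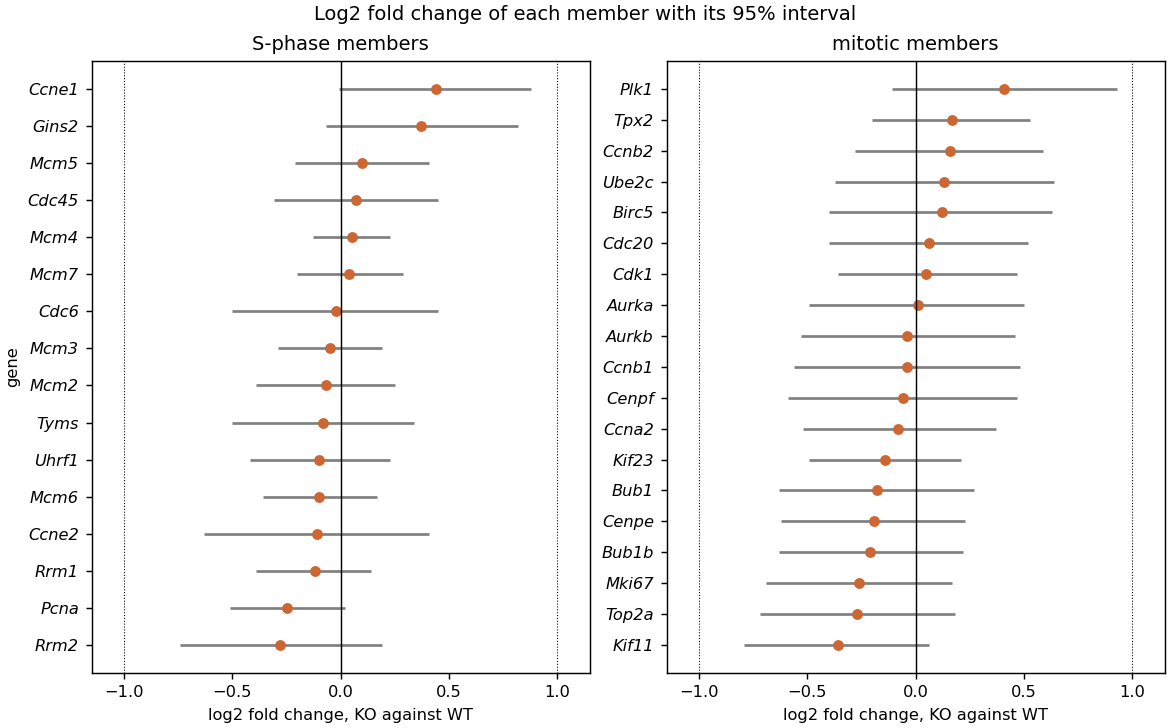
Log2 fold change of each member in KO against WT (points) with its 95% interval derived from the edgeR test (bars). There were n = 5 mice each, with S-phase members left, mitotic members right and dotted lines at -1 and 1. All intervals cross 0 and end inside the dotted lines, and those of mitotic members are wider.

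Among S-phase members, the genes that load and start the replicative helicase came first. The *Mcm2* to *Mcm7* genes encode the ring that unwinds DNA at the fork, and their log2 fold changes ran from -0.10 (*Mcm6*) to 0.10 (*Mcm5*). *Mcm6* had 59.4, 59.1, 64.8, 56.4 and 67.7 CPM in the WT mice and 62.1, 56.4, 58.6, 41.9 and 68.5 CPM in the KO mice. Apart from KO replicate 4, the lowest of all libraries, the KO values lay at or within the WT range or just above it (log2 fold change -0.10, 95% interval -0.36 to 0.17, adjusted p = 0.569). *Mcm5* had 38.6, 46.1, 43.1, 40.4 and 43.4 CPM in WT and 45.0, 49.2, 46.1, 30.2 and 56.3 CPM in KO. KO replicates 2, 3 and 5 were above every WT mouse, KO replicate 4 was below every one, and KO replicate 1 lay in the WT range (log2 fold change 0.10, 95% interval -0.21 to 0.41, adjusted p = 0.612). *Mcm4* was the steadiest member, with 26.7 to 31.4 CPM in WT and 26.7 to 30.9 CPM in KO and a 95% interval of -0.13 to 0.23. *Mcm2* (24.4 to 44.3 CPM in KO), *Mcm3* (28.4 to 38.0 CPM) and *Mcm7* (39.2 to 59.6 CPM) also reached below and, but for *Mcm3*, above their WT ranges. *Cdc6*, which loads the ring onto origins, had 6.71 to 10.8 CPM in WT and 4.96 to 11.3 CPM in KO. *Cdc45*, which turns the loaded ring into an active helicase, had 8.10 to 9.81 CPM in WT and 6.77 to 13.2 CPM in KO. *Gins2*, a subunit of the GINS complex of that helicase and the least abundant member per kb of exon in WT, had 4.20, 4.66, 4.38, 4.78 and 5.38 CPM in WT and 6.25, 5.30, 6.75, 3.72 and 8.29 CPM in KO. It was above every WT mouse in 3 KO mice and below every one in KO replicate 4 (log2 fold change 0.37, 95% interval -0.07 to 0.82, adjusted p = 0.183). Without KO replicate 4 it was called higher in KO (log2 fold change 0.51, adjusted p = 0.0412), and it overlaps 2 genes on the other strand.

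The remaining S-phase genes act at the fork or in nucleotide supply. *Pcna*, the sliding clamp of the DNA polymerases, had the highest level per length of all members, 45.7 CPM per kb of exon in WT and 38.5 in KO. It had 120.0, 116, 111, 101 and 100.4 CPM in WT and 105, 75.4, 77.4, 92.7 and 112 CPM in KO. KO replicates 2, 3 and 4 were below every WT mouse, while KO replicates 1 and 5 lay inside the WT range (log2 fold change -0.25, 95% interval -0.51 to 0.02, adjusted p = 0.146). *Rrm1*, the large subunit of ribonucleotide reductase, which makes deoxynucleotides, had 52.0, 55.4, 50.4, 45.9 and 55.4 CPM in WT and 50.7, 42.2, 49.98, 36.7 and 58.0 CPM in KO. Its KO mice spread to both sides of the WT range (log2 fold change -0.12, 95% interval -0.39 to 0.14, adjusted p = 0.456). *Rrm2*, the small subunit, had 21.4, 33.7, 26.6, 19.7 and 23.3 CPM in WT and 13.8, 18.8, 21.9, 17.9 and 30.5 CPM in KO. It was the member whose lowest library was KO replicate 1 and whose highest was WT replicate 2 (log2 fold change -0.28, 95% interval -0.74 to 0.19, adjusted p = 0.337). *Tyms*, thymidylate synthase, had 18.3 to 22.1 CPM in WT and 11.01 to 27.1 CPM in KO. *Uhrf1*, which guides the copying of DNA methylation at the fork, had 41.1 to 47.8 CPM in WT and 28.6 to 56.2 CPM in KO. *Pcna* and *Tyms* have named pseudogenes that could share reads with them.

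The cyclins that open S phase went different ways between the KO mice. *Ccne1*, cyclin E1, had 5.09, 6.32, 5.02, 4.84 and 5.16 CPM in WT and 5.46, 7.40, 6.96, 5.24 and 10.7 CPM in KO. Of the KO mice, 3 were above every WT mouse and the other two above 4 of the 5. This was the highest fold change of any member, and it missed the threshold (log2 fold change 0.44, 95% interval -0.01 to 0.88, adjusted p = 0.12). *Ccne2*, cyclin E2, had 7.58, 9.44, 7.41, 10.0 and 6.84 CPM in WT and 12.0, 9.13, 6.15, 5.58 and 5.35 CPM in KO. Unlike most members it was highest in KO replicate 1 and lowest in KO replicate 5 (log2 fold change -0.11, 95% interval -0.63 to 0.41, adjusted p = 0.745). It overlaps 1 gene on the other strand.

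Among mitotic members, the most abundant in CPM were *Mki67*, which coats chromosomes in mitosis and encodes the proliferation marker Ki-67, and *Top2a*, which untangles sister chromatids. *Mki67* had 147, 157, 136, 128 and 157 CPM in WT and 103, 130.3, 146, 67.2 and 159 CPM in KO. KO replicates 1 and 4 were below every WT mouse and KO replicate 5 just above (log2 fold change -0.26, 95% interval -0.69 to 0.17, adjusted p = 0.331). *Top2a* had 139, 138, 121, 116 and 150 CPM in WT and 107, 96.2, 122, 62.4 and 163 CPM in KO. KO replicates 1, 2 and 4 were below every WT mouse and KO replicate 5 again above (log2 fold change -0.27, 95% interval -0.72 to 0.18, adjusted p = 0.337).

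The kinases and cyclins that drive mitosis came next. *Plk1*, the polo kinase of mitotic entry and the mitotic member with the highest level per length (19.1 CPM per kb of exon in WT and 25.3 in KO), had 41.9, 35.8, 40.7, 45.6 and 45.4 CPM in WT and 51.4, 28.6, 71.1, 44.9 and 82.5 CPM in KO. KO replicates 1, 3 and 5 were above every WT mouse and KO replicate 2 below every one (log2 fold change 0.41, 95% interval -0.11 to 0.93, adjusted p = 0.201). Without KO replicate 2 it was called higher in KO (log2 fold change 0.57, adjusted p = 0.0338). *Ccnb2*, cyclin B2, had 27.8, 22.9, 26.4, 22.8 and 24.5 CPM in WT and 25.8, 18.1, 31.6, 21.5 and 41.7 CPM in KO. Its KO mice lay on both sides of the WT mice (log2 fold change 0.16, 95% interval -0.28 to 0.59, adjusted p = 0.571). *Ccnb1*, cyclin B1, had 21.2 to 26.8 CPM in WT and 12.1 to 37.2 CPM in KO. *Ccna2*, cyclin A2, had 30.2 to 39.8 CPM in WT and 20.4 to 51.3 CPM in KO. *Cdk1*, their partner kinase, had 19.4 to 27.6 CPM in WT and 17.8 to 35.05 CPM in KO. The Aurora kinases were as broad, *Aurka* at 15.02 to 17.4 CPM in WT and 10.5 to 26.9 CPM in KO, and *Aurkb* at 17.3 to 20.5 CPM in WT and 11.3 to 30.8 CPM in KO. *Ccnb1* and *Ccnb2* each have a named pseudogene, and *Ccna2* overlaps 1 gene on the other strand.

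The genes of the spindle included the lowest fold change. *Kif11*, the motor that pushes spindle poles apart, had 41.3, 37.2, 33.6, 32.9 and 36.9 CPM in WT and 29.1, 26.7, 32.1, 15.5 and 38.1 CPM in KO. KO replicates 1 to 4 were below every WT mouse and KO replicate 5 lay among them (log2 fold change -0.36, 95% interval -0.79 to 0.06, adjusted p = 0.175). *Tpx2*, which activates Aurora A on the spindle, had 22.8, 18.9, 22.6, 20.2 and 23.5 CPM in WT and 22.0, 20.9, 26.4, 17.5 and 34.4 CPM in KO. Its groups overlapped, with KO replicates 3 and 5 on top (log2 fold change 0.17, 95% interval -0.20 to 0.53, adjusted p = 0.464). *Kif23*, a motor of cytokinesis, had 26.7 to 31.9 CPM in WT and 17.6 to 34.2 CPM in KO.

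The kinetochore, checkpoint and exit genes completed the group. *Cenpe* and *Cenpf*, which act at kinetochores, varied most of the mitotic members within WT, at 14.5 to 22.6 and 15.1 to 26.9 CPM, and in KO had 11.3 to 21.6 and 11.2 to 26.0 CPM. The checkpoint kinase genes *Bub1* and *Bub1b* had 8.98 to 13.1 and 24.9 to 29.2 CPM in WT and 6.39 to 13.4 and 14.1 to 34.1 CPM in KO. *Birc5*, survivin of the chromosomal passenger complex, had 22.9 to 30.7 CPM in WT and 16.4 to 46.8 CPM in KO. *Cdc20*, which activates the anaphase promoting complex, had 29.0 to 38.0 CPM in WT and 21.7 to 55.9 CPM in KO. *Ube2c*, the ubiquitin-conjugating enzyme of that complex, had 30.1 to 38.7 CPM in WT and 21.03 to 61.8 CPM in KO. For all of these the KO range ran below the WT range, and for all but *Cenpe* and *Cenpf* also above it.

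**Figure D2:**
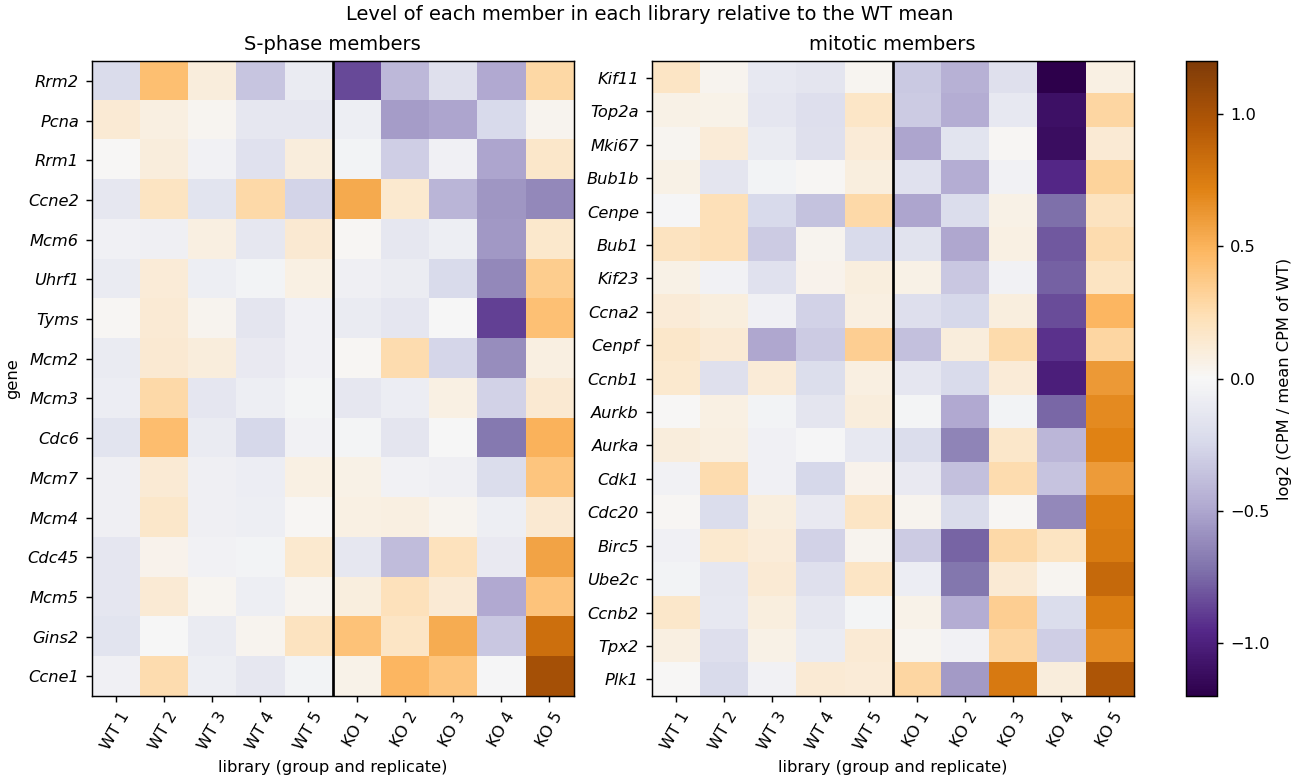
Level of each member (rows) in each library (columns) as log2 of its CPM over the mean CPM of the 5 WT mice, S-phase members left and mitotic members right, sorted by log2 fold change. The column of KO replicate 4 is low in most rows, that of KO replicate 5 is high in most rows, *Ccne2* being low in both and highest in KO replicate 1.

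The KO mice differed among themselves more than the WT mice did. The SD of log2 CPM was larger in KO than in WT for 33 of 35 members (14 of 16 S-phase and 19 of 19 mitotic), where 77.4% of all genes showed the same. It was over 2 times larger for 28 of 35 members (12 S-phase and 16 mitotic), against 34.3% of all genes. Its median was 0.113 in WT and 0.342 in KO for S-phase members, and 0.152 in WT and 0.494 in KO for mitotic members, where all genes had 0.194 and 0.307. *Mcm3* and *Mcm4* were the 2 members with a smaller SD in KO.

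A pair of KO libraries carried most of this spread. KO replicate 4 was the lowest of the 10 libraries for 24 of 35 members (11 S-phase and 13 mitotic), against 22.0% of all genes. KO replicate 5 was the highest for 26 of 35 members (10 S-phase and 16 mitotic), against 13.7% of all genes. Relative to the WT mean, the median difference in log2 CPM was -0.47 in KO replicate 4 and 0.34 in KO replicate 5 for S-phase members, and -0.75 and 0.61 for mitotic members. The CPM of KO replicate 5 was a median 1.62 times that of KO replicate 4 over S-phase members and 2.20 times over mitotic members, where all genes had a median ratio of 0.994. The ratio was above 1 for 34 of 35 members, from 3.09 for *Ccnb1* to 0.960 for *Ccne2*, the exception. It was above 2 for 42.9% of the members and 5.86% of all genes. KO replicate 2 was also low in mitotic members, with a median of -0.44, but near WT in S-phase members, with -0.08. Without KO replicates 4 and 5, a choice made after the values were seen, the SD was larger in KO for 24 of 35 members (56.7% of all genes) and over 2 times larger for 11 (21.7% of all genes).

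**Figure D3:**
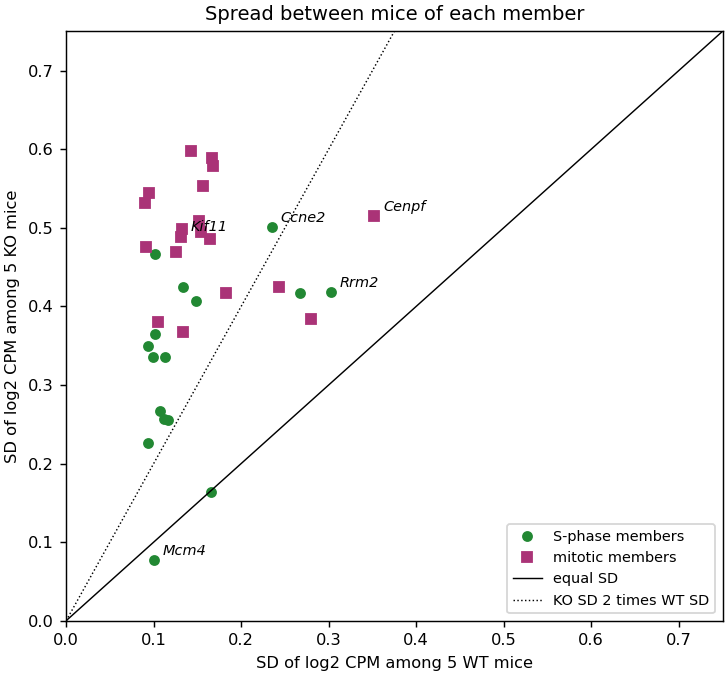
SD of log2 CPM among the 5 WT mice (horizontal axis) and the 5 KO mice (vertical axis) for each member, with a solid line where both are equal and a dotted line where that of KO is 2 times that of WT. All mitotic members (squares) and 14 of 16 S-phase members (circles) lie above the solid line.

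The mean level of each group of members had the same libraries at its ends. For S-phase members the mean log2 CPM was 4.48, 4.71, 4.52, 4.47 and 4.56 in WT and 4.54, 4.5, 4.53, 4.14 and 4.86 in KO. For mitotic members it was 4.98, 4.92, 4.85, 4.77 and 5.00 in WT and 4.76, 4.54, 5.04, 4.30 and 5.42 in KO. KO replicates 4 and 5 lay outside the WT range on opposite sides in both. KO replicate 4 was also the library with the most smooth muscle and B cell RNA, with a mean log2 CPM of 9.56 for the 10 smooth muscle markers (6.69 to 7.46 in WT, 8.06 to 8.74 in the other KO mice) and 4.92 for the 10 B cell markers. KO replicate 5, with 8.39 and 0.54 for the same lists, had few B cell reads. The mean of the 10 epithelial markers was highest of all libraries in KO replicate 5, at 10.07, against 9.75 in KO replicate 4 and 9.75 to 9.82 in the other KO mice. The mean of the 15 crypt markers was lowest of the KO mice in KO replicate 4, at 4.94. KO replicate 5 came next at 5.21, below the 5.33 to 5.44 of KO replicates 1, 2 and 3. Both lay inside the WT range of 4.93 to 5.24. KO replicate 3 had 4.60 for B cell markers together with a mitotic mean of 5.04, above the WT range. How far these cell types set the levels of the members was not tested.

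**Figure D4:**
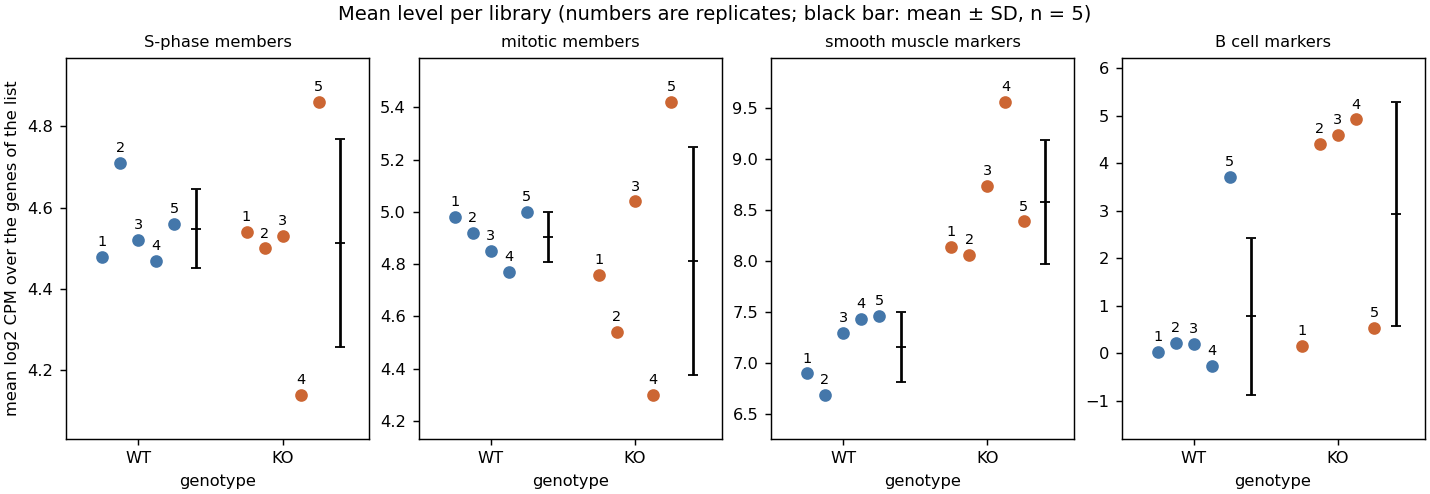
Mean log2 CPM per library over the S-phase members, the mitotic members, the smooth muscle markers and the B cell markers, by genotype, with the replicate number at each point and the mean ± SD (n = 5) as a black bar. KO replicates 4 and 5 sit at the lower and upper end of both groups of members, and KO replicate 4 is highest for smooth muscle and B cell markers.

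Other genes of replication and mitosis also held few calls, fewer than the 29.9% of all genes. Of 47 further replication genes 46 were tested, 1 was called higher and 1 lower, with a median log2 fold change of -0.02. With libraries scaled to their size only, 6 were called higher and 0 lower. Their median was then 0.10, beside 0.15 for all genes. *Hells*, a chromatin remodeller, fell from 26.3 ± 2.86 to 19.5 ± 3.39 CPM (SD, n = 5 each, log2 fold change -0.43, adjusted p = 0.0349), and *Rfc2*, of the clamp loader, rose from 33.7 ± 3.39 to 45.2 ± 7.70 CPM (log2 fold change 0.42, adjusted p = 0.0303). Neither call held in every fit that left out 1 mouse. *Dnmt1*, the most abundant of the list, had 70.9 ± 6.69 CPM in WT and 62.0 ± 12.6 CPM in KO (log2 fold change -0.19, 95% interval -0.51 to 0.12). *Fen1*, the flap nuclease, was below the filter at 0.056 to 0.702 CPM in any library (difference of -0.49 in mean log2 CPM, exact permutation test, 2-sided, p = 0.286). It overlaps 2 genes on the other strand, and how reads of overlapping genes were counted is not known. Its low counts may therefore not show its level.

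Of 53 further mitotic genes, 3 were called higher and 0 lower by edgeR, with a median of -0.04 and 5 genes at an unadjusted p under 0.05. DESeq2 called 3 of them higher and 1 lower. *Pttg1*, securin, which holds back separase, had 11.4, 10.8, 11.4, 8.46 and 9.86 CPM in WT and 12.4, 17.5, 12.6, 19.6 and 23.2 CPM in KO. All KO mice were above all WT mice, with KO replicates 4 and 5 highest (log2 fold change 0.72, adjusted p = 0.0151), and the call was lost without those 2 mice. *Cdc25b*, a phosphatase that activates CDK1, rose by 0.43 on the log2 scale (adjusted p = 0.0306), and *Bub3*, of the spindle checkpoint, rose by 0.28 (adjusted p = 0.0369). Both of these calls were lost when any of several single mice was left out. *Smc4*, of condensin and the most abundant of the list, had 68.8 ± 5.17 CPM in WT and 59.4 ± 9.83 CPM in KO (log2 fold change -0.21, 95% interval -0.48 to 0.05). KO replicate 5 was the highest library for 39 of the 53 genes and KO replicate 4 the lowest for 32, as in the members.

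Some regulators upstream of the members were called, about as often as genes in general. Of 19 genes of E2F factors, pocket proteins and MuvB, 4 were called lower and 1 higher in KO, a share near that of all genes. With libraries scaled to their size only, 3 were called higher and 3 lower, so the balance of directions depended on the scaling. *Rb1*, the retinoblastoma protein that holds E2F factors inactive, had 109, 107, 97.2, 106 and 129 CPM in WT and 90.02, 80.6, 86.0, 60 and 72.5 CPM in KO. The groups did not overlap (log2 fold change -0.49, standard error 0.12, adjusted p = 0.0118). *E2f3*, an activating E2F, had 35.6, 32.8, 30.7, 31.2 and 28.4 CPM in WT and 25.4, 23.6, 22.5, 20.5 and 26.6 CPM in KO. Every KO mouse was below every WT mouse (log2 fold change -0.42, standard error 0.10, adjusted p = 0.00979). *Tfdp2*, a dimer partner of E2F factors, fell from 75.5 ± 4.97 to 54.4 ± 8.70 CPM (log2 fold change -0.47, adjusted p = 0.00947), again without overlap. *Rbl2*, the pocket protein p130, fell from 44.5 ± 3.13 to 33.7 ± 6.07 CPM (log2 fold change -0.40, adjusted p = 0.0341), a call that was lost without some single mice. *E2f5*, an E2F that works with pocket proteins as a repressor, had 11.7, 10.0, 8.98, 14.6 and 13.1 CPM in WT and 24.8, 17.1, 14.4, 20.6 and 17.8 CPM in KO. Here 1 WT mouse reached into the KO range (log2 fold change 0.70, standard error 0.17, adjusted p = 0.0132).

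Of 19 G1 cyclins, cyclin-dependent kinases (CDKs) and their inhibitors and regulators, 18 were tested, 5 were called higher and 2 lower, beside 16.0% and 13.9% of all genes. *Wee1*, the kinase that keeps CDK1 inactive, had 18.0, 18.4, 20.2, 18.1 and 19.6 CPM in WT and 11.8, 12.4, 12.1, 4.81 and 9.60 CPM in KO. All KO mice were below all WT mice, KO replicate 4 farthest (log2 fold change -0.89, standard error 0.22, adjusted p = 0.012). *Skp2*, the ubiquitin ligase subunit that removes the inhibitor p27, had 12.9, 17.3, 14.8, 10.8 and 10.4 CPM in WT and 8.96, 6.71, 8.10, 5.34 and 8.39 CPM in KO. Its groups did not overlap either (log2 fold change -0.82, standard error 0.19, adjusted p = 0.00896).

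Inhibitors of the INK4 family, which block the kinases of cyclin D, were among the genes called higher. *Cdkn2b* had 86.8, 52.8, 58.0, 76.4 and 72.3 CPM in WT and 109, 109, 96.2, 129 and 142 CPM in KO. Every KO mouse was above every WT mouse (log2 fold change 0.75, standard error 0.15, adjusted p = 0.00508). *Cdkn2d* had 8.51, 4.78, 6.71, 7.53 and 8.80 CPM in WT and 8.28, 11.6, 15.3, 14.1 and 13.2 CPM in KO. KO replicate 1 alone lay in the WT range (log2 fold change 0.78, standard error 0.20, adjusted p = 0.016). *Cdkn2c* rose by 0.53 on the log2 scale (adjusted p = 0.0169). *Cdkn2a*, the remaining INK4 gene, was below the filter with 11 counts over the WT mice and 82 over the KO mice (difference of 1.79 in mean log2 CPM, exact permutation test, 2-sided, p = 0.0317). *Cks1b*, a small CDK-binding protein that works with *Skp2*, had 7.89, 7.40, 7.35, 7.42 and 7.73 CPM in WT and 7.55, 9.70, 14.7, 14.8 and 16.2 CPM in KO. KO replicate 1 stood at the WT level and the others above it (log2 fold change 0.73, standard error 0.20, adjusted p = 0.0186). *Ccnd3*, cyclin D3, rose by 0.58 (adjusted p = 0.0104). *Cdkn1a*, the inhibitor p21 and the most abundant of the list, had 234 ± 29.2 CPM in WT and 288 ± 39.7 CPM in KO (log2 fold change 0.30, 95% interval 0.03 to 0.58, adjusted p = 0.0888). *Cdkn2c*, *Cdkn2d* and *Cks1b* were no longer called without KO replicates 4 and 5. Smooth muscle markers were higher in KO in the same mice, and with the smooth muscle score as a covariate edgeR called 0 of 18 genes of the G1 list and 0 of 19 of the E2F list, 1 and 0 of which had an unadjusted p under 0.05. That fit called only 10 genes higher and 7 lower of all 15610, and the median log2 fold change of the G1 list was 0.23 there, against 0.17 without the score. Without WT replicate 5 and KO replicates 2, 3 and 4, the libraries with B cell RNA, which leaves 4 mice against 2, edgeR called 1 gene of the G1 list higher and 2 lower, and 0 of the 19 E2F, pocket protein and MuvB genes, 5 of which had an unadjusted p under 0.05, while of all 15967 genes tested 544 were called higher and 582 lower.

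**Figure D5:**
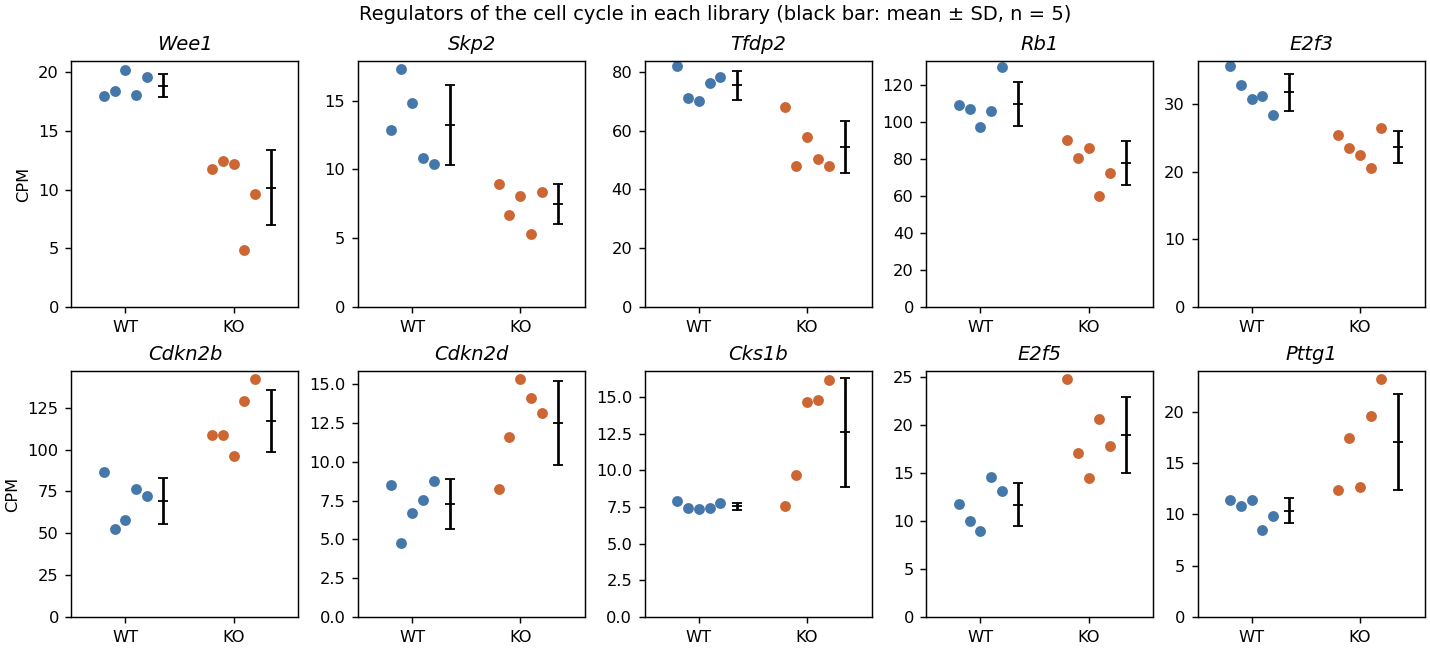
CPM of 10 regulators of the cell cycle in each of 5 WT and 5 KO mice (points, in replicate order) with the mean ± SD as a black bar, the vertical axes starting at 0. *Wee1*, *Skp2*, *Tfdp2*, *Rb1* and *E2f3* are lower in KO without overlap, *Cdkn2b* and *Pttg1* higher without overlap, and *Cdkn2d*, *Cks1b* and *E2f5* higher with some overlap.

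The compartment in which these cells divide was read from 15 crypt stem and progenitor markers, of which 6 were called higher and 1 lower in KO, beside 16.0% and 13.9% of all genes, with a median of 0.17. Only 2 were called higher without WT replicate 1, 2 or 3. With the smooth muscle score edgeR called 0 of them, beside only 10 genes higher and 7 lower of all 15610. In that fit 5 had an unadjusted p under 0.05, and the median log2 fold change of the list was 0.43. *Ephb3*, a receptor that places cells along the crypt, rose from 13.7 ± 2.81 to 22.8 ± 4.29 CPM (log2 fold change 0.74, adjusted p = 0.0106). *Prom1* rose from 47.7 ± 8.03 to 86.8 ± 31.1 CPM (log2 fold change 0.86, adjusted p = 0.0251) and *Tnfrsf19* from 5.57 ± 1.55 to 9.19 ± 1.63 CPM (log2 fold change 0.72, adjusted p = 0.0251), and both calls were lost without some single mice. *Rnf43*, a ligase that removes Wnt receptors, fell from 46.6 ± 3.89 to 33.4 ± 5.49 CPM (log2 fold change -0.48, adjusted p = 0.0127). *Lgr5*, the defining stem cell marker, had 16.6 to 24.4 CPM in WT and 14.96 to 28.6 CPM in KO (log2 fold change 0.14, 95% interval -0.26 to 0.53). *Olfm4*, the most abundant of the list, had 483, 379, 377, 444 and 476 CPM in WT and 537, 226, 176, 94.6 and 162 CPM in KO. KO replicates 2 to 5 were below every WT mouse and KO replicate 1 above every one (log2 fold change -0.85, 95% interval -1.68 to -0.03, adjusted p = 0.106), and without KO replicate 1 it was called lower (log2 fold change -1.39, adjusted p = 0.00139). KO replicate 5, the library highest in most members, was the highest for 3 of the 15 crypt markers (13.7% of all genes). It was not the highest in *Olfm4* or *Lgr5*, which were highest in KO replicates 1 and 2.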

How the data were processed

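RNA-seq libraries of proximal intestine from single mice, 5 WT and 5 KO, were sequenced on a NovaSeq instrument. The files the authors deposited hold, for each Ensembl gene ID, read counts that were not normalized. Their processing notes name FastQC 0.11.9, Trimmomatic, HISAT2 2.0.4, SAMtools 1.3.1, DESeq2 1.14.1 and the builds GRCm38 and mm10, while counter, annotation and strand setting were not given in the sources used here. Reads of overlapping genes may therefore be counted for either, which concerns 7 members (*Mcm7*, *Cdc45*, *Gins2*, *Ccne2*, *Ccna2*, *Cdc20* and *Ube2c*).

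IDs were named and placed by GENCODE M21 (GRCm38), 34490 of 35275 having a symbol, and IDs without one held 0.0729% to 0.0827% of counts. In R 4.3.3, edgeR 4.0.16 (limma 3.58.1) was used for a quasi-likelihood test after TMM scaling on 15610 genes that passed filterByExpr (at least 10 counts, total of at least 15), and p was adjusted over these by Benjamini-Hochberg with a threshold of 0.05. CPM uses the TMM-scaled library size, log2 CPM a prior count of 2, and CPM per kb the merged exons of a gene. Standard errors were derived from the edgeR test, as the absolute log2 fold change divided by the square root of the F statistic. Intervals of 95% extend from the log2 fold change by this error times the t quantile at the degrees of freedom of the test. The scripts were tested on simulated data. Of 100 genes changed there by a fold of 2, the edgeR test called 58, and 7 of its 157 calls were false.

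Members and lists were chosen with earlier results of these data known. Values in every library were given for the 3 most abundant, the 3 highest and the 3 lowest fold changes of S-phase and of mitotic members, both E cyclins, *Mki67* and *Pcna*. From other lists, up to 3 called genes per direction with the largest change and the most abundant gene were named. *Rbl2*, *Ccnd3*, *Cdkn2c*, *Cdkn2a*, *Fen1* and *Lgr5* were named after their values were seen. A further replication gene was left off the lists and is not reported here. Alternatives were RLE scaling, library size only, DESeq2 1.42.0, a mean count of at least 10, no filter, a replicate block, robust dispersion, scores of smooth muscle, B cell or epithelial markers as a covariate, leaving out each mouse and, chosen after seeing the data, leaving out KO replicates 4 and 5 or the 4 libraries with B cell RNA.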

Additional observations from a re-analysis of the deposited data

Results flagged for a closer look

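Over the S-phase and mitotic members and the mean level of each of these groups of genes, 74 groups of 5 mice were searched for a library that stood far from the other 4 by Dixon's test, and 2 were found, where chance gives about 1 in 20. Both were in WT replicate 2. *Mcm3* had 41.97 CPM there, against 31.4 to 33.9 CPM in the other WT mice. *Ccne1* had 6.315 CPM there, against 4.84 to 5.16 CPM in the other WT mice. Neither gene was called with or without that mouse.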

How the results depend on the processing

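The 2491 genes called higher and 2169 called lower in KO became 10 and 7 with the smooth muscle score as a covariate, 1007 and 1130 with the B cell score, 1 and 1 with the epithelial score, and 544 and 582 without WT replicate 5 and KO replicates 2, 3 and 4. Fits without 1 mouse called 1634 to 2944 higher and 1573 to 2563 lower. The median log2 fold change of S-phase members became 0.34 with the smooth muscle score and -0.36 with the epithelial score, and that of mitotic members 0.32 and -0.84. Without 1 mouse, 0 to 1 S-phase members (*Gins2*, without KO replicate 4) and 0 to 1 mitotic members (*Plk1*, without KO replicate 2) were called higher, and no other alternative called a member. An SD in KO over 2 times that in WT was found for 21 to 31 members without 1 mouse and for 11 without KO replicates 4 and 5. *Hells* went from -0.43 to 0.07 with the smooth muscle score and *Cdkn2b* from 0.75 to -0.16 with the epithelial score, neither called there. *Wee1*, *Skp2*, *Rb1*, *E2f3*, *Tfdp2*, *E2f5*, *Cdkn2b*, *Cdkn2c*, *Cdkn2d*, *Cks1b*, *Ccnd3*, *Pttg1*, *Ephb3* and *Rnf43* stayed called without any 1 mouse, but all of these lost the call with the smooth muscle score and with the epithelial score. Their log2 fold changes in these 2 fits were 0.81 and 0.37 for *Ephb3*, -0.39 and -0.55 for *Tfdp2*, -0.23 and -0.59 for *Rb1*, -0.12 and -0.69 for *E2f3*, -0.18 and -0.55 for *Skp2*, and -0.15 and -0.78 for *Wee1*. With the B cell score *Rb1*, *Tfdp2*, *E2f5*, *Cdkn2b*, *Pttg1* and *Ephb3* stayed called and the others of these did not. The cause of these changes was not tested, and the scores themselves differ between the groups.

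The labels number the mice 1 to 5 in both groups, but same-numbered mice did not deviate together (correlations -0.167 to 0.177 of their deviations from the group means). With the replicate number as a block, 1950 genes were called higher and 1898 lower, 0 members were called, and of the other named genes *Pttg1*, *Cdkn2c*, *Cdc25b*, *Bub3* and *Rbl2* were no longer called and *Olfm4* was (log2 fold change -1.10). With at least 16729787 counts in a library, each member had at least 73 reads.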
